A study of Mus musculus with 36 samples.

Results

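Peaks of MBD3 and of CTCF on day 4 were compared in wild-type mouse embryonic stem cells. Every interval of the 2 day 4 peak lists on chromosomes 1 to 19, X and Y was taken once, which gave 9006 MBD3 peaks and 36787 CTCF peaks, 45793 of the 182783 peaks of the series. A place was counted as holding both proteins when an MBD3 and a CTCF peak overlapped by 1 bp or more. This gave 7590 MBD3 peaks that overlapped CTCF peaks, 1416 MBD3 peaks alone and 29222 CTCF peaks alone. The 7590 overlapped 7565 CTCF peaks, because 27 CTCF peaks held several MBD3 peaks and 3 MBD3 peaks spanned 2 CTCF peaks.

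The series consists of chromatin immunoprecipitation followed by sequencing (ChIP-seq) with antibodies to MBD3 and to CTCF, beside input chromatin, on days 0, 2, 4 and 6. The day 4 groups used were 3 MBD3 samples and 3 CTCF samples, the deposited lists name the cells WT, and no label names an allele, a transgene or a drug. All cells were kept with leukaemia inhibitory factor in a serum replacement medium on irradiated mouse fibroblast feeders, whose chromatin may be present in the samples, and the labels name no treatment that would set the days apart. The study's title places its question at the part of the NuRD complex at CTCF sites. Peaks were called once per antibody on the 3 replicates together, so no spread between replicates exists and no p-value is given. The 95% intervals below are exact binomial intervals that cover counting error only.

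CTCF is a zinc finger protein that binds a long, conserved DNA motif, blocks enhancers at insulators and halts cohesin at the borders of chromatin loops. MBD3 is a subunit of NuRD, the complex that joins nucleosome remodelling by CHD3 or CHD4 with histone deacetylation by HDAC1 and HDAC2. Unlike its relative MBD2, mammalian MBD3 binds methylated CpG poorly, and NuRD containing it is known in embryonic stem cells for restraining pluripotency genes and permitting lineage commitment. Neither cell identity nor protein level can be read from peak lists. Carry-over between immunoprecipitates and cross-reaction of an antibody were not tested.

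The sequences of 6 promoters show the strongest cases of each class at the base level and are not typical of the classes. They are the pair of highest fold enrichment in each class among RefSeq windows of 300 bp (250 bases before to 50 bases after a transcription start, build GRCm38.p6) that held the peak's summit. The fold enrichment, given by the authors' peak caller, is the ratio of fragments over the summit to the expected background there, with 1 added to each. In the first pair, which held both proteins, capitals mark matches to a short form of the CTCF motif, searched on both strands: the letters CC, then AG after 3 free bases, then GGC after 2 free bases. Rapgef1, a guanine nucleotide exchange factor gene (chr2:29619470-29619769, plus strand), had an MBD3 fold of 19.8 and a CTCF fold of 35.4. It held 3 matches, the first starting at base 170 and the last at base 257, and the MBD3 summit fell on base 203, between the first and the last.
Rapgef1: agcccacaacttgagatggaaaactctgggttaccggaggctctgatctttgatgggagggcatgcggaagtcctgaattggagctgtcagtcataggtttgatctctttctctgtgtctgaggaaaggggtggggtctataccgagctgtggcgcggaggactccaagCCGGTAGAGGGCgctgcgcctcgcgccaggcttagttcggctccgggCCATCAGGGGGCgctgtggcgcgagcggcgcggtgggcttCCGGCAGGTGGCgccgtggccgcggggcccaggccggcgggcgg
Nipsnap2, a mitochondrial protein gene (chr5:129724825-129725124, plus strand), had an MBD3 fold of 19.4 and a CTCF fold of 30.8. Its 1 match starts at base 139 and reads on the minus strand, with the MBD3 summit on base 177.
Nipsnap2: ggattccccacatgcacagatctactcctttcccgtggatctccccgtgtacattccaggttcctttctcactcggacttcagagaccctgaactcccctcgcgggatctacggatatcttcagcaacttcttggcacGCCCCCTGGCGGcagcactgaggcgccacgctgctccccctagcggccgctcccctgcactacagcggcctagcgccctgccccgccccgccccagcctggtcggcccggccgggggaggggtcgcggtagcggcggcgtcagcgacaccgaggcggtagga
In the next pair, which held MBD3 alone, capitals mark CG dinucleotides, and neither window held the short motif. Foxk2, a forkhead transcription factor gene (chr11:121259737-121260036, plus strand), had an MBD3 fold of 7.60 and 59 CG dinucleotides.
Foxk2: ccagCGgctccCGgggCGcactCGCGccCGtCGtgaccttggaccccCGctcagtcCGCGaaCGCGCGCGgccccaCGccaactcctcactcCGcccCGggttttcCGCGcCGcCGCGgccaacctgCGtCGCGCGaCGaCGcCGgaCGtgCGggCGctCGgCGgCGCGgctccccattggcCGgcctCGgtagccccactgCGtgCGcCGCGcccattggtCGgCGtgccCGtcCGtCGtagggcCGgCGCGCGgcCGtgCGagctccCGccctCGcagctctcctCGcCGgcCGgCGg
Bsn, which encodes a scaffold protein of presynaptic terminals (chr9:108190334-108190633, minus strand), had an MBD3 fold of 6.29 and 38 CG dinucleotides.
Bsn: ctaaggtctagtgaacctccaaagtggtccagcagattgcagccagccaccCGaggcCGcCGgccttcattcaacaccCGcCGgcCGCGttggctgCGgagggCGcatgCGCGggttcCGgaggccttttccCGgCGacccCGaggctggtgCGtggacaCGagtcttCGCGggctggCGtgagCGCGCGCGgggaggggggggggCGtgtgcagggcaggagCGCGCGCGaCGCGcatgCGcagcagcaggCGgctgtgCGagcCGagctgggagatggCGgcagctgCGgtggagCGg
In the last pair, which held CTCF alone, both starts belong to long noncoding RNA genes and each window has 5 CG dinucleotides. Neither holds the letters of the short motif, so nothing is in capitals. Gm36529 (chr13:70840200-70840499, plus strand) had a CTCF fold of 22.5.
Gm36529: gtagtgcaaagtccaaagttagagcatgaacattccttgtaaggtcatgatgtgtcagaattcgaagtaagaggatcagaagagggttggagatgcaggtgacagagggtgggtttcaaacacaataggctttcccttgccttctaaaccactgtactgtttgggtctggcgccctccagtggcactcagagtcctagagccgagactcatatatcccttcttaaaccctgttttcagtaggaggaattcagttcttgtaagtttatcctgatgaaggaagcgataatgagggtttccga
Gm35197 (chr14:103718776-103719075, plus strand) had a CTCF fold of 20.4.
Gm35197: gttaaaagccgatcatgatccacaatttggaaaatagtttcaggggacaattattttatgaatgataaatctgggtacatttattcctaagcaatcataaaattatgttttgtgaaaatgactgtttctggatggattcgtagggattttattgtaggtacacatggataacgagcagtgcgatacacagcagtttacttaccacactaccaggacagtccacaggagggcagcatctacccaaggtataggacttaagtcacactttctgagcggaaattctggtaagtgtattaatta

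Most MBD3 peaks of day 4 lay in CTCF peaks, and most CTCF peaks had no MBD3 peak. Of the MBD3 peaks 84.3% (95% interval 83.5 to 85.0) overlapped a CTCF peak. In the other direction 20.6% of the CTCF peaks (20.2 to 21.0) overlapped an MBD3 peak. With the CTCF list limited to its strongest 9006 peaks by -log10 q, 61.8% of the MBD3 peaks overlapped one.

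CTCF peaks with MBD3 were the stronger CTCF peaks. Their median CTCF fold was 13.3, against 7.52 without MBD3, a ratio of 1.77. A median of 131 fragments covered the CTCF summit where MBD3 was present, against 41 where it was not. The median expected background at those summits was 9.09 fragments with MBD3 and 4.55 without it. CTCF peaks with MBD3 were also wider, with a median of 372 bp against 267 bp. A wider interval is more likely to meet an MBD3 peak under the 1 bp rule, and the part of that in the widths was not tested. Over the 10 equal parts of the CTCF list ranked by fold, the share with MBD3 was 4.13% in the lowest and 2.28% in the next. From there it was higher in each part, with 14.4% in the sixth and 62.7% (61.1 to 64.2) in the highest.

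MBD3 peaks with CTCF had a median MBD3 fold of 3.92, against 3.30 for MBD3 peaks alone, a ratio of 1.19. This order does not describe the strong peaks. The strongest 10% of the peaks with CTCF began at a fold of 6.22, and the strongest 10% of the peaks alone at 8.62. Limited to peaks of -log10 q of 10 or more, the medians were 4.64 with CTCF and 6.58 alone, so the order turned round. In that setting 41.5% of the 426 peaks alone overlapped a pseudogene. The share of MBD3 peaks with CTCF was 58.6% in the lowest decile of MBD3 fold, 93.2% in the sixth and the seventh, and 75.4% in the highest. Without peaks on pseudogenes the highest decile gave 89.2% (86.8 to 91.3).

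**Figure D1:**
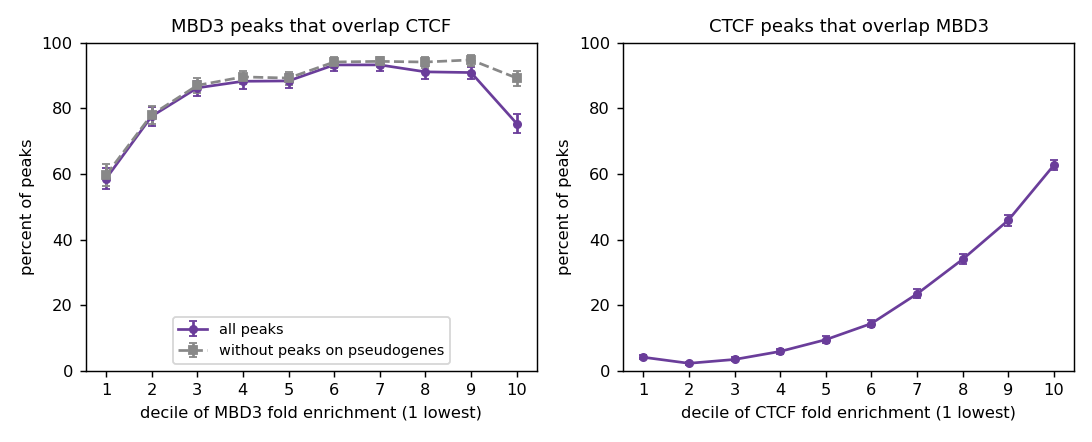
Percent of MBD3 peaks that overlapped a CTCF peak (left) and of CTCF peaks that overlapped an MBD3 peak (right), by decile of the list ranked by the authors' fold enrichment, with exact 95% intervals as bars. The MBD3 curve is lower at both ends, with 75.4% at the highest decile over all peaks and 89.2% there without peaks on pseudogenes, while the CTCF curve reaches 62.7% at the highest decile.

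The strongest places with both proteins lay inside or between genes rather than at their ends. A peak inside Apbb2, which encodes an adaptor that binds the amyloid precursor protein, led the class on MBD3, with a fold of 29.5 and a CTCF fold of 35.5 (mm10, chr5:66326413-66326812). Its summits fell on the same base, and it had peaks of both antibodies on all 4 days, with MBD3 folds of 16.1, 11.7, 29.5 and 27.6 on days 0, 2, 4 and 6. Next came places inside Nxpe3 with an MBD3 fold of 26.6, Ctif, a translation initiation factor gene, with 25.8, and Mmrn2, an extracellular matrix gene of the endothelium, with 24.2. Their CTCF folds were 38.0, 31.5 and 50.2. The place inside Prkar2b, a regulatory subunit of protein kinase A, was the next on MBD3 with 24.1 and led on CTCF with 56.4, again with summits on the same base. The other 3 places of highest CTCF fold lay between genes. The one 3384 bp from Jph2 had an MBD3 fold of 13.7 on a CTCF fold of 43.9. The one 5106 bp from Ccn5 had 19.5 on 42.2, and the one 39526 bp from Nfkb1, a subunit of the transcription factor NF-kappaB, had 14.9 on 41.9. All 8 of these places had peaks of both antibodies on all 4 days, as did 700 of the 7590 (9.22%).

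At the weak end, the place with the lowest MBD3 -log10 q was at the end of 1700056E22Rik, where 32 MBD3 fragments stood over an expected 15.5, a fold of 2.00 at a -log10 q of 1.31. CTCF had a fold of 3.19 there. The next 2, inside Uaca and 19383 bp from Aktip, had MBD3 folds of 2.18 and 2.38 on CTCF folds of 5.22 and 12.7. None of these 3 had an MBD3 peak on another day, whereas CTCF had a peak there on every day.

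MBD3 and CTCF summits lay close together within shared places. The median distance was 11 bp (95% interval of the median 11 to 12), 47.0% lay within 10 bp and 94.3% within 50 bp. The MBD3 summit lay to the left of the CTCF summit on the chromosome 3620 times, on the same base 161 times and to the right 3809 times. Of the MBD3 peaks, 90.7% lay wholly within the CTCF peak and 96.8% were narrower than it. The MBD3 fold exceeded the CTCF fold at 66 places. Across the 7590 places the rank correlation of the MBD3 and CTCF folds was 0.67, and that of the fragment numbers was 0.86. These are correlations across places of the same 2 pooled sets of libraries, given as a description. On days 0, 2, 4 and 6 the median summit distance was 12, 10, 11 and 9 bp.

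**Figure D2:**
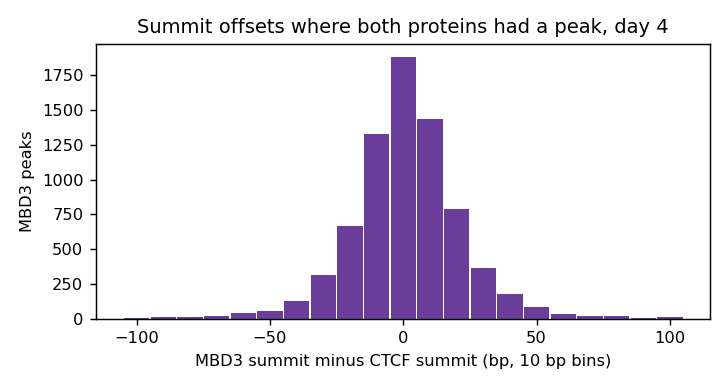
Number of MBD3 peaks by the offset of the MBD3 summit from the nearest CTCF summit of an overlapping peak, in bins of 10 bp from -100 to 100 bp. The bin at 0 holds 1879 of the 7590 peaks and the offsets spread to both sides alike.

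The distance was larger where either peak was weak. Over the quartiles of MBD3 fold, from low to high, the median was 16, 12, 11 and 8 bp. In the highest decile of CTCF fold it was 8 bp. In the lowest decile, which held 150 of the MBD3 peaks, it was 43 bp (29 to 59), and 51.3% of those lay within 1 kb of an end of a protein-coding gene. Summits lay over 100 bp apart at 197 places (2.60%). Of these, 35.5% (28.9 to 42.6) were at a gene end, against 19.3% of all shared places. The summit of a weak peak rests on few fragments, and the part of that in the distances was not tested.

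The places where MBD3 was highest relative to CTCF were picked after their values were seen. At the pseudogene Gm8666 on chromosome X the MBD3 fold was 16.8 and the CTCF fold 2.77. Inside Bbx, an HMG box transcription factor gene, they were 12.8 and 2.57, and CTCF had no peak there on days 2 and 6. At the end of the histone gene H2ac23 they were 6.43 and 3.32. Inside Ptprt, a receptor tyrosine phosphatase gene, they were 8.74 and 4.58 with summits 332 bp apart. At Bag1, a co-chaperone gene, they were 4.02 and 2.16 with summits 274 bp apart.

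MBD3 peaks alone lay at different kinds of places from MBD3 peaks with CTCF. Each peak was put in 1 of 5 places, in this order: overlapping an annotated pseudogene, summit within 1 kb of an end of a protein-coding gene, inside such a gene, inside another gene, or between genes. Of the MBD3 peaks alone 20.5% (18.4 to 22.7) were on pseudogenes, against 1.04% (0.825 to 1.30) with CTCF. At gene ends were 29.7% of the MBD3 peaks alone and 19.3% of those with CTCF. Inside coding genes were 26.3% alone and 36.0% with CTCF, and between genes 20.6% alone and 35.6% with CTCF. The difference at gene ends, counted whether or not the peak touched a pseudogene, was 10.6 percentage points, with 29.9% (27.6 to 32.4) alone and 19.3% (18.4 to 20.2) with CTCF. With a window of 5 kb it was 2.22 points, with a 95% interval of -0.60 to 5.06 that includes 0. The median expected background of MBD3 peaks at gene ends was 13.1 fragments alone and 15.3 with CTCF, above the 8.62 and 9.77 over all places of each class, and its part in these shares was not tested. CTCF summits were at gene ends in 19.2% of the CTCF peaks with MBD3 and in 8.70% of those without it.

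**Figure D3:**
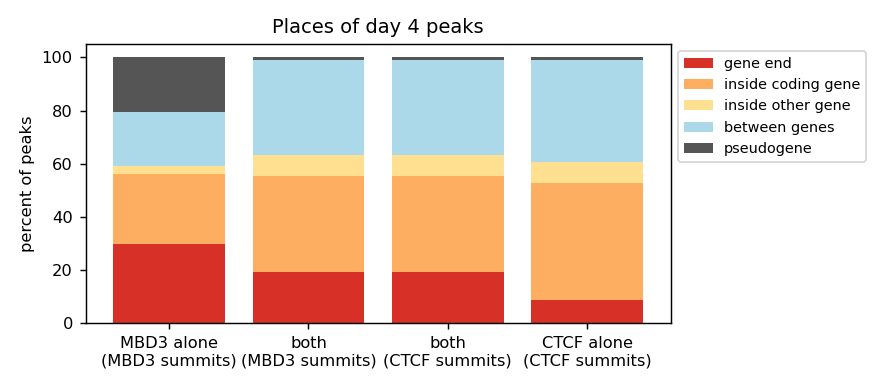
Percent of day 4 peaks in each of 5 places, for MBD3 peaks alone, places with both proteins by MBD3 summits and by CTCF summits, and CTCF peaks alone. Pseudogenes take 20.5%, 1.04%, 1.14% and 1.01% from left to right, and gene ends take 29.7%, 19.3%, 19.2% and 8.66%.

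Few MBD3 peaks alone had a CTCF summit close by, which the class in part requires, since it excludes overlap with CTCF peaks. The median distance from their summit to the nearest CTCF summit was 19247.5 bp, and 81 of the 1416 (5.72%) had one within 1 kb. No distance for other places of the genome was computed to set beside these. At gene ends the median was 9770 bp and on pseudogenes 28171 bp. They were also less uniform in shape: 12.0% of the peaks alone had several summits, against 2.11% of those with CTCF, and their median width was 242.5 bp against 218 bp.

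The MBD3 peaks alone of highest fold were on pseudogenes. The median MBD3 fold of peaks alone was 6.22 on pseudogenes, 2.79 at gene ends, 3.30 inside coding genes and 3.09 between genes. The leading 4 were Gm8130 on chromosome 16 with a fold of 44.6, Gm9843 on chromosome 16 with 41.1, Rpl14-ps1, within the gene Trpm4 on chromosome 7, with 39.2, and Gm15772 on chromosome 5 with 39.0. At these 4 the day 0 folds were 1.60 to 2.86 and the folds of days 2 and 6 were 44.5 or more, and CTCF had no peak on any day. Processed pseudogenes are near copies of the transcripts of their parent genes. Since the settings of the alignment are not given in the sources used here, fragments of parent genes placed on pseudogenes cannot be told apart from fragments of the pseudogenes, and their values are uncertain.

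Inside genes and away from pseudogenes the strongest MBD3 peaks alone were at Hsp90ab1, a cytosolic chaperone, with a fold of 28.7 (mm10, chr17:45568915-45569136), Pkm, a glycolytic enzyme, with 21.7, and Ncl, the nucleolar protein nucleolin, with 18.6. One lay between genes on chromosome X, 220568 bp from Slitrk4, with 20.1. At gene ends the leading ones were Gm15501 with 16.5, Rpl4, a protein of the large ribosomal subunit, with 15.6, Sparc, a secreted matrix glycoprotein, with 15.1, and Rpl37rt with 14.5. Of these 8, Gm15501 had a day 0 MBD3 peak, with a fold of 1.91, and the other 7 had none, whereas all 8 had MBD3 peaks on days 2 and 6. At Rpl4 the folds of days 2, 4 and 6 were 29.8, 15.6 and 31.0. None of the 8 had a CTCF peak on any day. At the lowest -log10 q of the class, 1.30, stood peaks 11336 bp from Pramel20 and 64796 bp from Tmem18, each with 10 fragments over an expected 2.56. The next, 31037 bp from Gm21119, had 51 fragments over an expected 29.01. None of those 3 had an MBD3 peak on another day.

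Around transcription starts the MBD3 peaks alone lay downstream and the shared ones upstream. The strand of a gene was taken from its promoter window, and chromosome 18 was not used here. Within 1 kb of a start lay 354 MBD3 summits alone and 1056 with CTCF. The median offset was +141 bp (128 to 154) for MBD3 alone, into the gene, and -57 bp (-65 to -49) for MBD3 with CTCF. Downstream of the start were 73.7% (68.8 to 78.2) of the summits alone and 32.0% (29.2 to 34.9) of those with CTCF. The first 250 bp of the gene held 48.6% of the MBD3 summits alone and 17.5% of those with CTCF. The 250 bp before the start held 15.5% of those alone and 49.5% of those with CTCF. CTCF summits had a median offset of -64 bp with MBD3 and -67 bp without it. This comparison was added after the data were seen.

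**Figure D4:**
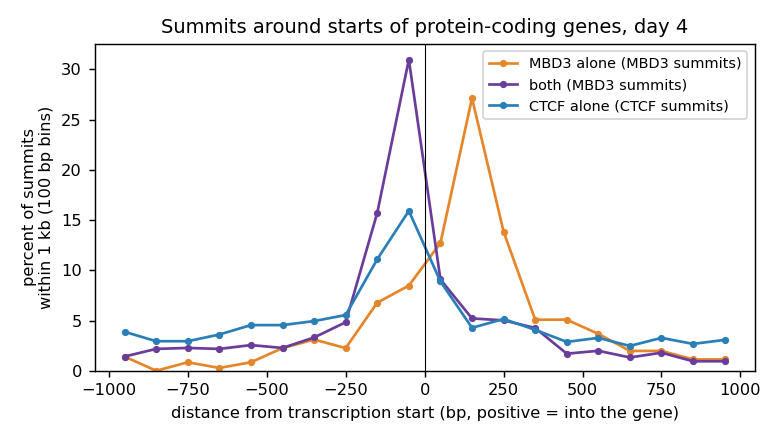
Percent of the summits within 1 kb of a transcription start of a protein-coding gene, in bins of 100 bp, against the distance from the start, where positive values are inside the gene. MBD3 summits alone gather downstream of the start (median +141 bp) and MBD3 summits with CTCF upstream of it (median -57 bp), beside CTCF summits alone (median -67 bp).

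Promoter windows that held an MBD3 summit alone had more CG dinucleotides than those of the other classes. The windows end 50 bases after the start, whereas MBD3 summits alone had a median offset of +141 bp. Most of them near starts thus fall outside the windows, and the values for MBD3 alone describe only those inside. The median offsets of MBD3 with CTCF, -57 bp, and of CTCF alone, -67 bp, fall inside. The median number per window of 300 bp was 35 (32 to 38) in the 79 windows of protein-coding genes with an MBD3 summit alone, 24 (23 to 25) in the 630 with both proteins and 20 (18 to 21) in the 563 with CTCF alone. Windows with no peak had a median of 11. Of the 3283 windows with 30 or more CG dinucleotides 1.61% held an MBD3 summit alone, against 0.0109% of the 9196 windows with 0 to 9. For MBD3 alone the shares at 10 to 19 and 20 to 29 were 0.0678% and 0.505%. For places with both proteins the shares from the lowest to the highest of these bins were 0.370%, 3.73%, 6.17% and 4.93%. For CTCF alone they were 1.11%, 3.86%, 3.74% and 3.87%.

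The short CTCF motif was in 10.1% (4.47 to 18.98) of the windows with MBD3 alone, 47.3% (43.3 to 51.3) of those with both proteins and 33.2% (29.3 to 37.3) of those with CTCF alone. All 21262 windows of protein-coding genes held it in 9.88%. These letters were chosen after a longer form was searched, which adds an A after CC and an A at the end and whose every match is also a match of the short one. The longer form was found in 1.27%, 2.70% and 3.20% of the 3 classes and in 0.588% of all windows. In windows with both proteins the median distance from the nearest match to the MBD3 summit was 23.5 bp and to the CTCF summit 13.5 bp (357 windows, long noncoding RNA genes included). A match is a description of the letters, and windows without one may hold other forms of the motif. The limit of the windows for MBD3 alone, given above, applies to these shares too.

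Genes were assigned to the classes when a peak overlapped 1 kb around either of their ends. Of 21883 protein-coding genes, 1713 (7.83%) had a place with both proteins, 475 (2.17%) MBD3 alone and 2901 (13.3%) CTCF alone. Any MBD3 peak was found at 2157 (9.86%). A gene can be in several classes, and 12 gene lists were read against these shares, with no test.

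Of 22 core and naive pluripotency genes 3 (13.6%) had MBD3 alone, 2 (9.09%) CTCF alone and none both proteins. Over all genes these shares were 2.17%, 13.3% and 7.83%, and a count of 0 in a list of this length is no result about its members. Sox2, the transcription factor that partners OCT4, had an MBD3 fold of 6.02 on day 4, and 2.65, 7.50 and 3.08 on days 0, 2 and 6. Pou5f1, the gene of OCT4, had 4.39 on day 4 and 4.48 on day 2, and no peak on days 0 and 6. Klf5 had 2.56, on day 4 only. Of 10 genes of formative and primed pluripotency none was in any class, which is no result in a list of this length either. Of 15 NuRD subunit genes 4 (26.7%) had MBD3 alone, against 2.17% of all genes. None had both, and with both at 7.83% of all genes that 0 is again no result about the members. The histone binding subunit Rbbp7 on chromosome X had an MBD3 fold of 8.30, and 4.51, 14.4 and 6.92 on days 0, 2 and 6. The deacetylase Hdac2 had 3.86 and Mbd3 itself 2.48. Their summits lay 183, 118 and 197 bp into the gene. At the Mbd3 place CTCF had peaks on days 0 and 6, with CTCF folds of 2.31 and 2.07. The fourth, the remodeller Chd3, named because the count is small, had 2.65. Hdac1 and Cdk2ap1 had CTCF alone, with CTCF folds of 4.32 and 4.82.

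Of 18 genes of CTCF and cohesin 5 (27.8%) held both proteins, against 7.83% of all genes. None had MBD3 alone, against 2.17%, and 2 (11.1%) CTCF alone, against 13.3%. Stag2, a cohesin subunit on chromosome X, had an MBD3 fold of 11.3 and a CTCF fold of 24.1 with summits 2 bp apart. Esco1, which acetylates cohesin, had 7.54 and 22.0, and Ctcf had 5.00 and 11.9. Stag2 and Ctcf had MBD3 peaks on all 4 days, and Esco1 on days 0, 4 and 6. The other two, named because the count is small, were the cohesin regulator Pds5b with 5.19 and 17.8 and the CTCF paralogue Ctcfl with 3.99 and 6.53. Smc3 and Pds5a had CTCF alone on day 4, with CTCF folds of 7.55 and 9.41, and MBD3 on day 0, with MBD3 folds of 3.95 and 2.94.

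Among lineage genes, 4 of 18 genes of mesoderm and endoderm (22.2%) had both proteins, against 7.83% of all genes. Eomes, Mesp1 and Sox17, transcription factors of early mesoderm or endoderm, had MBD3 folds of 3.44, 3.21 and 2.68 on CTCF folds of 6.22, 7.92 and 6.59. The fourth, Gata6, had 2.28 on 7.33. Isl1 had MBD3 alone with a fold of 2.60. Of 16 neuroectoderm genes none had both proteins, 2 (12.5%) had MBD3 alone and 3 (18.8%) CTCF alone. Over all genes these shares were 7.83%, 2.17% and 13.3%, and the 0 in a list of this length is no result about its members. The 2 with MBD3 alone were the transcription factor genes Sox11 with 2.65 and Sox1 with 2.34, both without MBD3 on the other days. CTCF had a peak at both on day 0, with CTCF folds of 4.28 and 2.41, and at Sox11 on day 6, with 5.20. Tubb3, Nes and Olig2 had CTCF alone, with CTCF folds of 12.0, 5.90 and 3.35. Of 39 Hox genes 5 (12.8%) had both proteins, against 7.83% of all genes. In a list of this length that is no result about its members. The leading ones were Hoxc10 with an MBD3 fold of 5.31 on a CTCF fold of 21.8, Hoxb5 with 3.80 on 14.4 and Hoxa6 with 3.04 on 14.9. Hoxa5 shares the peak of Hoxa6, and Hoxa10 was the fifth. Hoxb4 had MBD3 alone, with 2.32, on day 4 only. Hoxc5, Hoxb8 and Hoxd11 had CTCF alone, with CTCF folds of 14.0, 12.6 and 12.5.

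Clustered protocadherin genes, whose promoters are known CTCF targets, were mostly CTCF alone. Of 32, 21 (65.6%) had CTCF alone, 8 (25%) had both and none MBD3 alone, against 13.3%, 7.83% and 2.17% of all genes. Pcdhb8, Pcdhb3 and Pcdhb6 led with CTCF folds of 20.6, 16.5 and 15.7. The 8 rest on few peaks, since Pcdhga1 and Pcdhgb1 share 1 with an MBD3 fold of 3.36 on a CTCF fold of 12.1, and so do 4 other Pcdhg genes. That peak lies by the end that these genes have in common, not at their separate promoters. Pcdhga1, Pcdhgb1 and Pcdhga12 are also among the 21, through CTCF peaks by their other end. Pcdhac1 had 4.16 on 14.7. Of 24 imprinted genes, 21 of them protein-coding, 6 (25%) had CTCF alone, against 13.3% of all protein-coding genes. Kcnq1 was the 1 with MBD3 alone (4.17%, against 2.17%), with a fold of 2.68, on day 4 only. CTCF had a peak at the Kcnq1 place on day 0, with a CTCF fold of 4.90. Peg10 and Sgce share a CTCF peak of fold 11.5, and Magel2 had 13.6. Of 13 genes of DNA methylation and demethylation none had both, 4 (30.8%) had CTCF alone and 2 (15.4%) MBD3 alone. Over all genes these shares were 7.83%, 13.3% and 2.17%, and the 0 in a list of this length is no result about its members. Zbtb33, a reader of methylated DNA, led those with CTCF alone, with a CTCF fold of 14.5. MBD3 alone was found at Tet2, which oxidises methylcytosine, with an MBD3 fold of 2.29 and at Uhrf1, which guides maintenance methylation, with 2.01. At the Tet2 place CTCF had a peak on day 0, with a CTCF fold of 2.38.

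Genes of abundant transcripts were in all 3 classes. Of 78 ribosomal protein genes 18 (23.1%) had both proteins, 5 (6.41%) MBD3 alone and 17 (21.8%) CTCF alone. Over all genes these shares were 7.83%, 2.17% and 13.3%. With both, Rpl22 had an MBD3 fold of 16.0 on a CTCF fold of 21.5, Rps29 had 7.29 on 10.3 and Rplp0 5.77 on 13.8. MBD3 alone was found at Rpl4, as above, Rpl8 with 8.53 and Rpl41 with 5.69, and 2 more, Rpsa with 5.09 and Rps15 with 2.76, complete the 5. Of these, Rpl4 was also among the genes with both, with an MBD3 fold of 2.58 on a CTCF fold of 6.39. Rpl41 and Rps15 were also among those with CTCF alone, with CTCF folds of 5.27 and 6.91. Some other genes of the list were in several classes too. At the Rpl8 place CTCF had a peak on day 0, with a CTCF fold of 1.63. Rpl19, Rpl5 and Rps14 had CTCF alone, with CTCF folds of 16.0, 12.5 and 11.6. Of 20 further abundant transcripts 5 (25%) had MBD3 alone, 5 (25%) CTCF alone and 1 (5%) both. Over all genes these shares were 2.17%, 13.3% and 7.83%. Those with CTCF alone were led by Eno1, Hspa8 and Gapdh, with CTCF folds of 7.88, 4.63 and 4.99. The 5 with MBD3 alone were led by the ubiquitin gene Ubb with 7.16, the ferritin gene Ftl1 with 6.47 and the elongation factor gene Eef1a1 with 6.10. The other two were Ldha with 3.70 and Ppia with 3.11. Pkm had both at its start, with an MBD3 fold of 2.14 on a CTCF fold of 4.67, apart from its stronger MBD3 peak alone inside the gene. By its other end Pkm also had CTCF alone, with a CTCF fold of 4.68.

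Shared places had CTCF on the other days too, and most of their MBD3 peaks were found again on days 0 and 6 and few on day 2, whose MBD3 list is short. Of the 7590 MBD3 peaks with CTCF, 99.4%, 97.5% and 99.2% had a CTCF peak on days 0, 2 and 6, and 60.7% (59.6 to 61.8), 10.6% (9.92 to 11.3) and 68.7% (67.6 to 69.7) an MBD3 peak. MBD3 on day 4 only was found at 1490 of them (19.6%). Of the MBD3 peaks alone 30.6% (28.2 to 33.1), 34.3% (31.8 to 36.9) and 34.3% (31.8 to 36.8) were found again on days 0, 2 and 6, and 663 (46.8%) had MBD3 on day 4 only. The MBD3 lists hold 10464, 1991 and 10875 peaks on those days, and a short list can hold fewer of these places.

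The day 6 shares also followed the fold. In the lowest decile of MBD3 fold 48.4% of the peaks with CTCF and 10.7% of the peaks alone had an MBD3 peak on day 6. In the ninth decile the shares were 72.8% with CTCF and 76.8% alone. In the highest they were 90.6% with CTCF and 98.2% alone, so the order was the opposite there. That decile held 901 peaks, 679 of them with CTCF. Without peaks on pseudogenes it held 751, 670 of them with CTCF, so most of its peaks alone were on pseudogenes. Their part in the order was not tested.

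**Figure D5:**
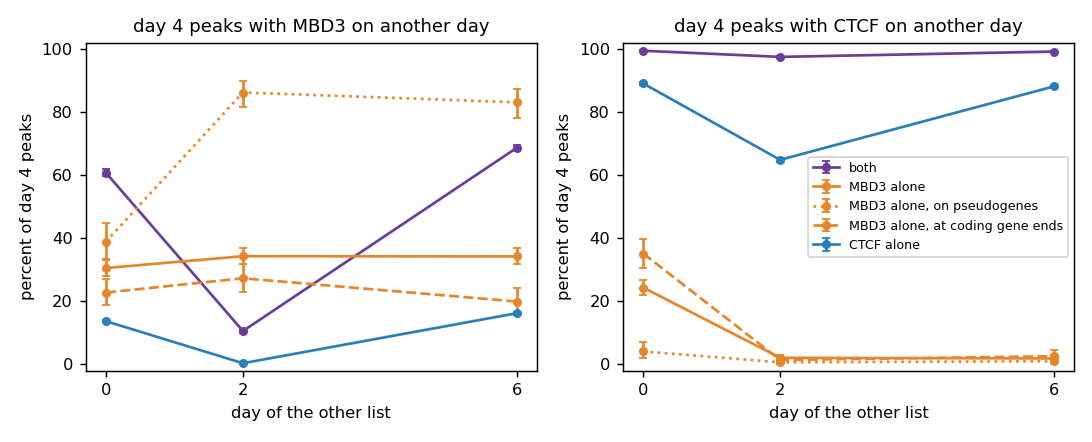
Percent of day 4 peaks with an MBD3 peak (left) and a CTCF peak (right) on days 0, 2 and 6, by class and, for MBD3 alone, by place, with exact 95% intervals as bars. CTCF stays above 97% at shared places on all 3 days, MBD3 is at 60.7%, 10.6% and 68.7% there, and MBD3 peaks alone on pseudogenes are at 39.0%, 86.2% and 83.1%.

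The shares of MBD3 peaks alone that were found on other days differed by place, with no test. On pseudogenes MBD3 was found again on days 0, 2 and 6 at 39.0%, 86.2% and 83.1%, and 21 of 290 had MBD3 on day 4 only. At gene ends it was found again at 22.8%, 27.3% and 20.0%, and 260 of 421 (61.8%) had MBD3 on day 4 only. CTCF was found on day 0 at 35.2% (30.6 to 39.9) of the MBD3 peaks alone at gene ends, and at 1.43% and 2.61% of them on days 2 and 6. Over all MBD3 peaks alone, CTCF was found at 24.4% on day 0, 2.12% on day 2 and 1.91% on day 6. The 347 CTCF peaks of day 0 there were weak, with a median CTCF fold of 2.52 against 6.67 over the day 0 list, and the day 0 list was the longest of the CTCF lists. On no day was CTCF found at 1056 of the 1416 (74.6%).

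CTCF peaks alone mostly lacked MBD3 on every day. Of the 29222, 22070 (75.5%) had no MBD3 peak on any day, and 13.7%, 0.397% and 16.2% had one on days 0, 2 and 6. Those with MBD3 on day 6 had a median day 4 CTCF fold of 11.3, against 6.88 for those without. The strongest lay 88839 bp from Zfpm2, with a CTCF fold of 34.4 on day 4 and an MBD3 fold of 6.00 on day 6. It was followed by places near Anapc4 with 34.0 and near Ptprc with 32.2, inside Rims2 with 32.1 and near Fgf20 with 30.6. Each had CTCF on all 4 days. The one near Ptprc had an MBD3 fold of 5.29 on day 6, and the other three had no MBD3 peak on any day.

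Of 5 contrasts between the classes, those on pseudogenes, on CTCF fold and on CTCF summits at gene ends had the same sign on all 4 days, and those on MBD3 summits at gene ends and on MBD3 fold did not. The share of pseudogenes was higher among MBD3 peaks alone than among those with CTCF by 11.8, 35.7, 19.4 and 38.7 percentage points on days 0, 2, 4 and 6. The share of MBD3 summits at gene ends, alone minus with CTCF, differed by -2.91, 6.75, 10.6 and 0.70 points. The share of CTCF summits there, with MBD3 minus without, differed by 4.18, 5.98, 10.6 and 3.99 points. The ratio of the median MBD3 folds, with CTCF over alone, was 1.31, 0.86, 1.19 and 0.93. The ratio of the median CTCF folds, with MBD3 over without, was 2.20, 1.67, 1.77 and 1.97. These values were not tested between days.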

How the data were processed

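ChIP-seq peak lists of MBD3 and CTCF on day 4 were used, each called on replicates 1 to 3 pooled, as the names of the deposited lists show. Lists of days 0, 2 and 6 gave the other days. Per the submitters' processing notes the authors worked on build mm10 with MACS2 2.1.2, bedtools 2.25.0, Bowtie2 2.3.4, FastQC 0.11.7 and SAMtools 1.9, and the settings are not given in the sources used here. The authors deposited for each peak a score, a fold enrichment (a ratio), the -log10 p, the -log10 q and the offset of the summit in bp, with no counts of fragments. The lowest -log10 q was 1.30 for MBD3 and 1.31 for CTCF.

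Intervals with several summits were counted once, with the summit of highest -log10 q. MACS2 computes fold and p by fixed formulas, so the fragments at each summit, a whole number, and their expected background were recovered from the deposited fold and -log10 p. A number matching the -log10 p within 0.1% was found for 9005 of 9006 MBD3 and all 36787 CTCF peaks. On 2000 simulated summits the right number was found for 100%, and 35.15% matched some number once folds and p-values were shuffled. The lowest expected background that 0.5% of a list or more had in common, 1.93 fragments for MBD3 and 1.83 for CTCF, is the only measure of depth here. On 8000 simulated peaks the overlap code counted 714, as bedtools 2.31.1 did.

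Genes, their outer ends and promoter windows came from RefSeq tables of GRCm38.p6, the assembly of mm10, without exons. Shares have exact (Clopper-Pearson) 95% intervals and medians have intervals from binomial order statistics, covering counting error only. PCR-amplified fragments are not independent molecules. No test between samples was possible. Named places are the 5 of highest MBD3 and of highest CTCF fold with both proteins, the 4 of highest fold in each of 3 locations for MBD3 alone, the 5 of highest fold for CTCF alone and the 3 of lowest -log10 q in both MBD3 classes. Genes of the 12 lists are named up to 3 per list and class by -log10 q, and promoters are the 2 of highest fold per class. The classes, lists and rules were chosen with earlier results of these data known. The alternatives tried were summits within 100 bp, 50% overlap, equal list lengths, all chromosomes, each summit counted, windows of 5 kb, no peaks on pseudogenes, a -log10 q limit of 10, and leaving out peaks whose background exceeded 10 times that lowest level. Analyses ran in Python 3.11.15 (scipy 1.17.1, pandas 2.3.3, numpy 2.4.6, matplotlib 3.10.9).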

Additional observations from a re-analysis of the deposited data

Results flagged for a closer look

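Outside the chromosomes analysed, the day 4 MBD3 list has 13 peaks on the mitochondrial chromosome and 18 on unplaced or random scaffolds, and the CTCF list has 13 and 39. The mitochondrial folds were 1.39 to 1.87 for MBD3 and 1.32 to 1.89 for CTCF. The ratio of the median MBD3 folds, with CTCF over alone, was 1.19 on day 4 and lay on the other side of 1 on day 2, at 0.86, and on day 6, at 0.93. The share of MBD3 summits at gene ends, alone minus with CTCF, was 10.6 percentage points on day 4 and -2.91 on day 0. These differences between days were not tested.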

How the results depend on the processing

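Each list pools its replicates, so no replicate could be left out. No paired analysis was possible because the replicate numbers are merged in the lists. At a -log10 q of 10 or more, the ratio of median MBD3 folds, with CTCF over alone, was 0.71, against 1.19 over all peaks, so its direction was reversed. At that limit the share of MBD3 peaks in CTCF peaks was 89.1%, that of CTCF peaks with MBD3 11.5%, the CTCF fold ratio 1.65, and the summit distance 9 bp. The gene end differences were 5.93 (MBD3, alone minus both) and 13.4 points (CTCF, both minus alone), the pseudogene difference 40.5 and the day 6 difference (both minus alone) 4.64 points against 34.4. With the CTCF list cut to the length of the MBD3 list the shares were 61.8% and 61.5% and the MBD3 fold ratio 1.13. With summits within 100 bp they were 82.1% and 20.1%, and with each summit counted 82.7% and 21.1%. Windows of 5 kb gave gene end differences of 2.22 (-0.60 to 5.06) and 14.5 points. Without pseudogenes the MBD3 share was 86.9%, its fold ratio 1.28, the gene end difference 17.9 and the day 6 difference 46.7 points. Without peaks of high background the CTCF share was 18.7%, the CTCF fold ratio 1.80, the gene end differences 14.4 and 7.07 and the day 6 difference 29.9 points. Weighted within deciles of MBD3 fold, added after seeing the data, the day 6 difference was 31.4 points. The causes were not tested. The other 22 values stayed within the 95% intervals of the values reported.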

Other observations

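A smaller share of the CTCF peaks had MBD3 on chromosome X than on the autosomes, a comparison chosen after its values were seen. Of 925 CTCF peaks on X, 84 had MBD3 (9.08%, 95% interval 7.31 to 11.1), against 20.9% (20.4 to 21.3) on the autosomes, where chromosome 14 was lowest with 17.6% and chromosome 8 highest with 24.5%. The median CTCF fold was 8.13 on X and 8.57 on the autosomes. In the highest decile of CTCF fold the share was 37.5% (26.4 to 49.7) on X and 63.2% (61.6 to 64.7) on the autosomes. On days 0, 2, 4 and 6 it was 10.6%, 1.93%, 9.08% and 14.1% on X and 19.7%, 3.83%, 20.9% and 26.4% on the autosomes. The median expected background of MBD3 peaks was 4.90 fragments on X and 9.41 on the autosomes. The part of this background in the shares was not tested. Stag2 and Rbbp7, described above, are on X.

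MBD3 peaks overlapped few small RNA genes. A tRNA gene was overlapped by 4 MBD3 peaks alone (0.282% of that class) and 3 with CTCF (0.0395%). A miRNA hairpin was overlapped by 4 alone (0.282%) and 6 with CTCF (0.0791%). Hairpins with MBD3 alone included Mir682 with an MBD3 fold of 5.33 and Mir7654 with 3.71. With both proteins Mir432 had an MBD3 fold of 7.69 on a CTCF fold of 12.4. A long noncoding RNA gene was overlapped by 8.12% of the MBD3 peaks alone and 12.3% of those with CTCF.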
